A study of Mus musculus with 9 samples.

Results

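Colon macrophages that lacked gp91phox were compared with wild-type (WT) macrophages across 13683 genes. These were all genes with a normalized count (reads divided by a size factor for the library) of at least 10 in at least 3 of the 6 libraries of the 2 groups, out of 42454 genes in the table. At the edge of this rule, the value that decided inclusion was 10.01 for Zfp982, just inside, and 9.94 for Tmem56, just outside. The cells were lamina propria macrophages sorted as Ly6C low and MHC class II positive from 6-week-old mice. Both groups had 3 libraries. The labels give the genotypes as WT and gp91phox-/- and no treatment, and the way the allele was made, the background strain and the number of animals in a library are not given in the sources used here. In p47phox-/-, also 3 libraries from 6-week-old mice, another subunit of the same enzyme was targeted, and its values are given where they stand beside a result. The labels do not say that the libraries came from separate animals, so p-values measure only how far these samples spread, which may be technical spread. Libraries are named below by group and replicate number (WT 1). Numbers in parentheses after gene names are log2 fold changes, gp91phox-/- minus WT, on the log2(normalized count + 1) scale unless another quantity is named.

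The phagocyte NADPH oxidase passes electrons from NADPH to oxygen and makes superoxide, the source of the other reactive oxygen species of the phagocyte. Its catalytic core is gp91phox, encoded by Cybb, which sits in the membrane with p22phox, encoded by Cyba, and is switched on by cytosolic subunits, among them p47phox (Ncf1) and p40phox (Ncf4), with the small GTPase Rac. In the colon, Ly6C high monocytes enter the mucosa and lose Ly6C as they mature into resident macrophages that carry MHC class II and the fractalkine receptor CX3CR1, take up bacteria and dying cells, and usually release little inflammatory cytokine. The series title places the comparison in a study of reactive oxygen species and the development of these cells.

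The targeted gene could not be read. Cybb lies on chromosome X, and all 1362 genes placed there were listed at 0 in all 9 libraries, so no value checked the gp91phox-/- label. The identity of the cells could be checked. All 15 macrophage markers were read in each group. Of these 11 were not called between the groups, among them Adgre1, Csf1r, Mertk, Cd68, C1qa, C1qb, C1qc, Cd14, Lyz2 and Mrc1 (-0.06 for Cd68 to 0.49 for Mrc1). The summed level of the 15 was 630753 to 842835 in WT and 826027 to 965433 in gp91phox-/-. The other 4, Cx3cr1, Fcgr1, Tyrobp and Aif1, were higher (26.7%, against 4.37% of all genes tested). The count was 1 with no mean-variance trend and in the fit of all 3 groups. It was 2 without WT 2, WT 3, gp91phox-/- 1 or gp91phox-/- 2 and 7 in DESeq2. Libraries held 32864793 to 52797368 reads on genes, and gp91phox-/- libraries had a read on 18115 to 18760 genes against 15825 to 17280 in WT. The part that depth and the number of genes read play in the results was not tested. On the first principal component of the 6 libraries, 55.4% of the variance, the WT libraries lay between -65.2 and -43.1 and the gp91phox-/- libraries between 50.3 and 58.7.

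In limma, 1529 genes (11.2% of those tested) were called at an adjusted p under 0.05, 598 higher (4.37%) and 931 lower (6.8%) in gp91phox-/-. The genes that rose moved less far than those that fell. Among the higher, 194 changed by at least 2-fold, 38 by at least 4-fold and 9 by at least 16-fold, and among the lower 481, 282 and 143. The libraries of the 2 groups did not overlap for 4636 genes (33.9%). These included all 598 genes called higher and 928 of the 931 called lower. For a called gene, libraries that lie apart therefore add nothing to its call. The median log2 fold change of all genes tested was 0.01. The count of calls was 877 without WT 1, 950 without WT 3, 704 without gp91phox-/- 2 and 867 without gp91phox-/- 3. A fit with no mean-variance trend called 742 genes, and DESeq2 on the recovered reads called 2416; the lower genes were the more numerous in each of these. Summed B cell markers were 54139 to 73551 in WT and 20762 to 27706 in gp91phox-/-, and summed plasma cell markers 111447 to 316586 and 23941 to 31279. With these markers and the immunoglobulin segments taken out of the scaling and of the test, a choice made after seeing the data, 1445 genes were called, 651 higher and 794 lower.

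**Figure D1:**
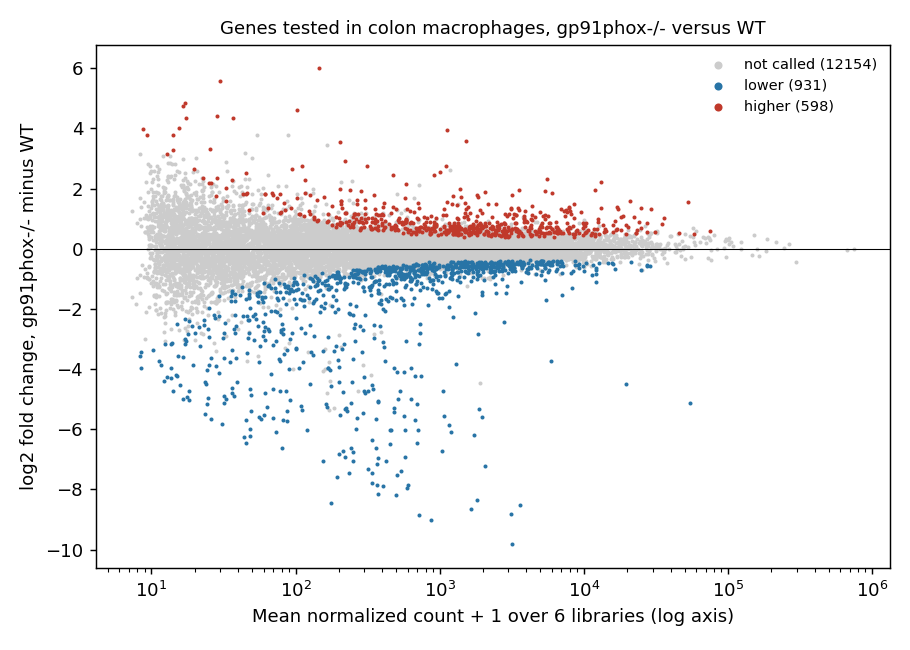
Log2 fold change of each gene tested, gp91phox-/- minus WT (y axis), against its mean normalized count + 1 over the 6 libraries (x axis, log scale); 1 point is 1 gene. Genes called lower (931, blue) reach far greater changes than genes called higher (598, red), and 12154 genes were not called (grey).

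The group in which the greatest share of members rose was the interferon-inducible GTPases, enzymes of the IRG (immunity-related GTPase) and GBP (guanylate-binding protein) families that gather on vacuoles holding bacteria or parasites and break them open. Of 24 listed genes 22 were tested; 18 rose (81.8%, against the 4.37% of all genes called higher), 0 fell and 4 were not called. The list median was 1.52. Iigp1 (Irga6; chromosome 18, 60373616 to 60392634, GRCm38.p6 coordinates here and below), an effector GTPase of this family, had 204, 168 and 336 normalized counts in WT and 1729, 3428 and 3308 in gp91phox-/- (log2 fold change 3.57, SE 0.31, adjusted p = 0.000151). Each gp91phox-/- library was above each WT library, by at least 5-fold. Its p47phox-/- libraries, 1136, 714 and 1581, lay between the 2 groups.

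Among the GBP genes, Gbp7 (chromosome 3, 142530336 to 142550151) had 1262, 1275 and 1802 normalized counts in WT and 4559, 6327 and 5960.3 in gp91phox-/- (log2 fold change 1.96, SE 0.18, adjusted p = 0.0002). Gbp5, which promotes inflammasome activation, had 818, 875 and 841 in WT and 1863, 3645 and 4422 in gp91phox-/- (log2 fold change 1.88, SE 0.27, adjusted p = 0.00281). Gbp6 (chromosome 5, 105270702 to 105295871) had 472, 564 and 589 in WT and 1501, 2424 and 2707 in gp91phox-/- (log2 fold change 1.99, SE 0.21, adjusted p = 0.000567). For all of these, as for Gbp4 (1.79), Gbp8 (1.50) and Gbp3 (0.97), the lowest gp91phox-/- library was above the highest WT library, and gp91phox-/- 1 was the lowest of its group. These genes form clusters on chromosome 3 (Gbp3, Gbp5 and Gbp7) and chromosome 5 (Gbp4, Gbp6 and Gbp8).

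The IRG genes of chromosome 11 rose by less than Iigp1. Irgm2 (chromosome 11, 58214977 to 58222783), a regulator that keeps effector GTPases off the membranes of the cell, had 408, 429.6 and 368 in WT and 883, 1046 and 1166 in gp91phox-/- (log2 fold change 1.35, SE 0.15, adjusted p = 0.000787). Igtp (Irgm3), another such regulator, had 606, 630.0 and 594 in WT and 1235, 1648 and 1706 in gp91phox-/- (log2 fold change 1.31, SE 0.15, adjusted p = 0.000873). Tgtp2 (Irgb6), an effector, had 145, 206 and 285 in WT and 567, 1106 and 1178 in gp91phox-/- (log2 fold change 2.14, SE 0.32, adjusted p = 0.00327), but its near-identical copy Tgtp1 was not called (1.31, adjusted p = 0.14), and how the counting split reads between such copies is not given. No WT library reached a gp91phox-/- library in Irgm2, Igtp or Tgtp2. The unnamed family members F830016B08Rik (3.56), Gm4951 (2.91) and Gm12250 (1.63) rose too, while Gbp9 (0.60), 9930111J21Rik1 (0.30) and 9930111J21Rik2 (2.07) were not called. Calls lost with a library left out were those of Ifi47 without WT 1 or WT 3 (adjusted p up to 0.0531), Gbp2b without any 1 library other than WT 3 or gp91phox-/- 3 (adjusted p up to 0.107), Gbp2 without WT 1, WT 3 or gp91phox-/- 2 (adjusted p up to 0.0757), Irgm1 without WT 1 or gp91phox-/- 2 (adjusted p up to 0.0602) and Gvin1 without any 1 library other than gp91phox-/- 1 (adjusted p up to 0.13). The list count ranged from 13 to 18 over the libraries left out.

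**Figure D2:**
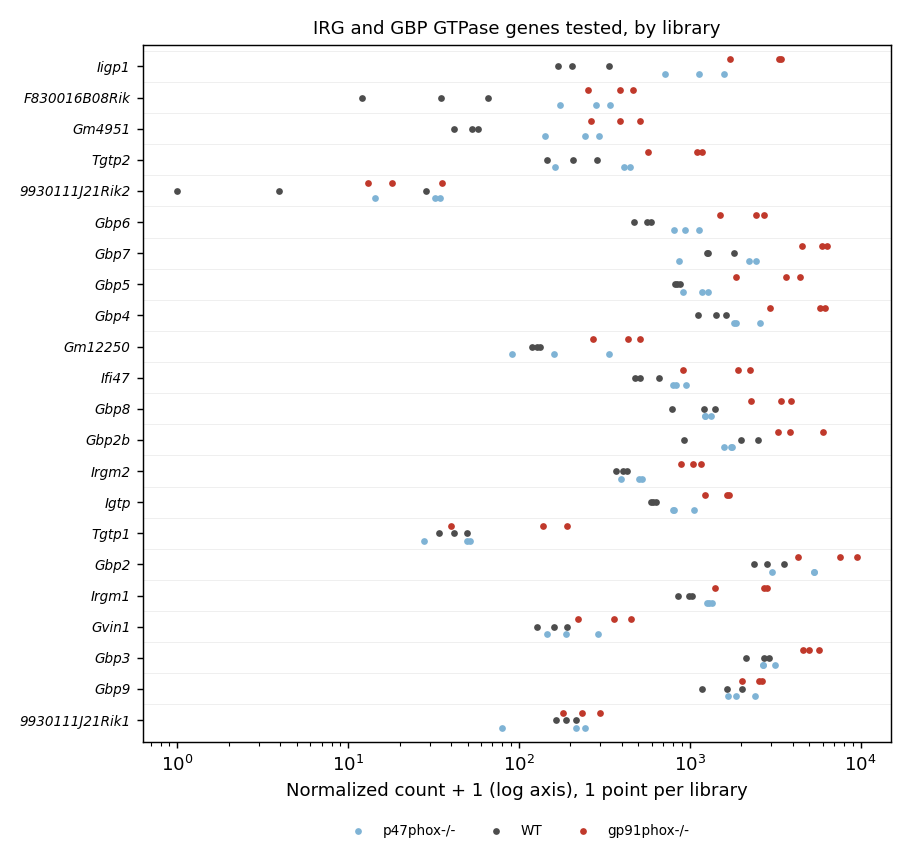
Normalized count + 1 (x axis, log scale) of the 22 IRG and GBP genes tested, 1 point per library, ordered by log2 fold change from the top. In 19 of the 22 genes the gp91phox-/- points (red) lie above all WT points (dark grey), as in 15.6% of all genes tested; p47phox-/- points are light blue.

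Interferons switch such genes on through the interferon-stimulated response element (ISRE) of their promoters, whose core repeats GAAA. The letters GAAA, any 2 bases and GAAA again, on either strand, were looked for in the 250 bases before the gene start in a RefSeq promoter table (GRCm38.p6), which held 10495 of the genes tested. They were found in 10 of the 11 promoters available for IRG and GBP genes that rose (90.9%), in 11 of the 14 for those tested, in 3.44% of the promoters of all genes tested, in 9.28% of those of genes called higher and in 2.31% of those of genes called lower. A match is a run of letters and not a measured binding site. The 5 stretches below are shown because their genes rose and the stretch holds a match. Each is the last 100 bases before the start, written 5′ to 3′ on the gene's strand. Capitals mark the match.
Gbp7, chr3:142530236-142530335, plus strand: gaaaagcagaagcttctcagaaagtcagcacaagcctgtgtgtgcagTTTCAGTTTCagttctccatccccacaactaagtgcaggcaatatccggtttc
Igtp, chr11:58199456-58199555, plus strand: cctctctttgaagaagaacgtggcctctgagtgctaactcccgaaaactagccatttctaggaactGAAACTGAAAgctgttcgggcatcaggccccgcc
Irgm2, chr11:58214877-58214976, plus strand: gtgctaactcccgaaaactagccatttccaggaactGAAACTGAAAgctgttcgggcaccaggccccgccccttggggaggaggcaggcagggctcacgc
Tgtp2, chr11:49064213-49064312, minus strand: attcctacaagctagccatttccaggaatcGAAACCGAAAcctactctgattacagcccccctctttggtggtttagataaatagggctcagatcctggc
Socs1, chr16:10785537-10785636, minus strand: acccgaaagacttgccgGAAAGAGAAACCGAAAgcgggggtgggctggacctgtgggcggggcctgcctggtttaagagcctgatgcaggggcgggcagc
The match began 53 bases before the start in Gbp7, where it reads on the opposite strand, 34 in Igtp, 64 in Irgm2 and 70 in Tgtp2. In Socs1, the interferon-inducible inhibitor of JAK kinases, matches that began 83 and 77 bases before the start overlap. Socs1 had 313, 245 and 245 in WT and 369, 942 and 869 in gp91phox-/- (log2 fold change 1.33, SE 0.32, adjusted p = 0.0293), with the libraries of the groups apart. Its call was lost without any 1 library other than gp91phox-/- 1 (adjusted p up to 0.102).

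Some genes of the response to interferon-gamma rose. Irf1, a transcription factor of this response, had 5404, 6229.6 and 5569 normalized counts in WT and 11380.0, 15564 and 13481 in gp91phox-/- (log2 fold change 1.22, SE 0.14, adjusted p = 0.000747), and the gp91phox-/- libraries lay above WT. The T cell attractant Cxcl9, a gene that responds to this interferon, had 2159, 2385 and 2900.4 in WT and 5111, 13135 and 10439 in gp91phox-/- (log2 fold change 1.85, SE 0.29, adjusted p = 0.00467). Of 26 tested genes of interferon-gamma signalling, 8 rose (30.8%, against 4.37% of all genes), 0 fell and 18 were not called, with a median of 0.32. The immunoproteasome subunit Psmb9 (0.75) was among those that rose, while the receptor chains Ifngr1 (0.10) and Ifngr2 (0.21), Irf8 (-0.01) and the MHC class II activator Ciita (0.29) were not called. The count was 3 with no mean-variance trend, 4 without gp91phox-/- 2 and 5 without WT 1, WT 3 or gp91phox-/- 3. Ifng itself was read too little to be tested.

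A smaller share of the genes best known as antiviral targets of type I interferon was called. Of 60 tested, 8 rose (13.3%, against 4.37% of all genes), 1 fell (1.67%, against 6.8%) and 51 were not called, with a median of 0.35. Cxcl10 (1.43) and the ADP-ribosyltransferase Parp14 (0.72) rose whichever library was left out, but the count was 1 with no mean-variance trend, 3 without WT 3 or gp91phox-/- 2, 4 without WT 1 or gp91phox-/- 3, 5 without WT 2 and 15 in DESeq2. Isg15 (0.67), Ifit1 (0.13), Ifit3 (0.03), Rsad2 (0.03), Mx1 (-0.44), Oas3 (-0.17) and the transcription factor Irf7 (-0.59) were not called (adjusted p = 0.105 for Irf7 and 0.841 for Ifit1). The ISRE letters stood in 26 of 49 promoters of these genes (53.1%). The one that fell, the exonuclease gene Isg20 (-0.92), lost its call without any 1 library other than gp91phox-/- 3 (adjusted p up to 0.125).

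The MHC class I pathway shows peptides to CD8 T cells. Of its 27 tested genes, 7 rose (25.9%, against 4.37% of all genes) and 0 fell (median 0.38). The non-classical H2-Q7 had 7791, 6446 and 6591 normalized counts in WT and 10592, 13927 and 13454 in gp91phox-/- (log2 fold change 0.86, SE 0.14, adjusted p = 0.00539), and H2-Q5 (0.81) and H2-M2 (1.53) also kept their calls with any library left out. Reads of the H2-Q genes can be shared between close copies, so their split is uncertain. The peptide transporter Tap1 (0.70), the trimming peptidase Erap1 (0.48) and H2-T22 (0.43) lost theirs, Tap1 without any 1 library other than WT 2 or gp91phox-/- 1 (adjusted p up to 0.073), Erap1 without any 1 library other than WT 3 (adjusted p up to 0.0949) and H2-T22 without any 1 library other than gp91phox-/- 1 (adjusted p up to 0.181). The count was 2 with no mean-variance trend, 4 without WT 1, gp91phox-/- 2 or gp91phox-/- 3 and 13 in DESeq2.

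Inflammatory cytokines and targets of NF-kB, the transcription factor that answers microbial and cytokine signals, were the next group by the share of members that rose. Of 49 tested, 22 rose (44.9%, against 4.37% of all genes), 1 fell and 26 were not called, with a median of 0.61. Il1a (chromosome 2, 129299609 to 129310186) encodes a cytokine that dying cells also release. It had 1838, 1481 and 2024 normalized counts in WT and 5788, 8903 and 13528 in gp91phox-/- (log2 fold change 2.33, SE 0.26, adjusted p = 0.00077), and every gp91phox-/- library was at least 2-fold above every WT library. Il1b, its partner that the inflammasome cuts, had 25126, 28169 and 26070.0 in WT and 59038, 77117 and 100791 in gp91phox-/- (log2 fold change 1.55, SE 0.19, adjusted p = 0.00135). Ptgs2, the inducible cyclooxygenase that starts prostaglandin synthesis, had 3699.9, 4751 and 4687 in WT and 13127, 21185 and 30961 in gp91phox-/- (log2 fold change 2.24, SE 0.26, adjusted p = 0.000968). In Il1a, Il1b and Ptgs2 alike, gp91phox-/- 1 was the lowest and gp91phox-/- 3 the highest of the group.

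Nos2, the inducible nitric oxide synthase, had the greatest fold change of the list and a wide spread. It had 95.3, 68.3 and 88.7 normalized counts in WT and 289, 1723 and 4513 in gp91phox-/- (log2 fold change 3.96, SE 0.77, adjusted p = 0.012), so that gp91phox-/- 3 was more than 10-fold above gp91phox-/- 1, although all 3 lay above WT. Slc7a2, which imports the arginine that Nos2 uses, spread in the same order, with 43.9, 85.2 and 69.5 in WT and 187, 393 and 1090.4 in gp91phox-/- (log2 fold change 2.74, SE 0.54, adjusted p = 0.013). So did Inhba, which encodes the activin A subunit and is outside the list, with 219, 169 and 305 in WT and 439, 1490.3 and 3414 in gp91phox-/- (log2 fold change 2.54, SE 0.59, adjusted p = 0.0257). Calls were lost for Nos2 without WT 3 (adjusted p = 0.0508), Slc7a2 without WT 1 (adjusted p = 0.058) and Inhba without any 1 library other than gp91phox-/- 1 or gp91phox-/- 3 (adjusted p up to 0.082).

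Other cytokine genes rose too. Tnf had 4418, 3503 and 4757 normalized counts in WT and 7115, 10897 and 13181 in gp91phox-/- (log2 fold change 1.26, SE 0.21, adjusted p = 0.00642). Osm, an IL-6 family cytokine, rose to 5252 ± 206 from 2871 ± 410.4 (SD, n = 3; 0.88), and Il10, the anti-inflammatory cytokine of gut macrophages, had 4972, 4028 and 4232 in WT and 9056, 13595 and 11496 in gp91phox-/- (log2 fold change 1.35, SE 0.16, adjusted p = 0.000972). The groups did not overlap in any of these. Il23a (2.66), Csf3 (1.92) and Il18 (0.84) rose but lost the call, Il23a without any 1 library other than WT 2 or gp91phox-/- 1 (adjusted p up to 0.0768), Csf3 without any 1 library other than WT 2 or gp91phox-/- 1 (adjusted p up to 0.0832) and Il18 without any 1 library other than WT 3 or gp91phox-/- 1 (adjusted p up to 0.0969). Il6 (1.16, adjusted p = 0.251), Il12b (1.22, adjusted p = 0.103), Il27 (1.01) and the receptor antagonist Il1rn (0.61, adjusted p = 0.0509) were not called.

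Some genes that NF-kB induces and that regulate it rose with these cytokines. Tnip1, Tnip3, Bcl3, Irak3 and Socs3 of the same list were not called. Tnfaip3 (A20), an enzyme that removes ubiquitin from the signalling complex, had 16058, 16269 and 17541 normalized counts in WT and 39109.9, 44717 and 42426 in gp91phox-/- (log2 fold change 1.34, SE 0.12, adjusted p = 0.000212). Nfkbiz, a nuclear co-regulator, had 11890.4, 8923 and 11000.0 in WT and 32699, 30798 and 30815 in gp91phox-/- (log2 fold change 1.58, SE 0.14, adjusted p = 0.000151). In both genes the 3 gp91phox-/- libraries lay close together and far above WT. Nfkbia, the cytosolic inhibitor of NF-kB, had 14829, 15009 and 13434 in WT and 19548, 25990.1 and 29639.5 in gp91phox-/- (log2 fold change 0.78, SE 0.16, adjusted p = 0.0158), but the call was lost without WT 1, WT 3 or gp91phox-/- 2 (adjusted p up to 0.0641). The subunits themselves, Nfkb1 (-0.30), Nfkb2 (-0.13), Rel (0.42) and Relb (-0.07), were not called (adjusted p = 0.0688 for Rel and 0.273 for Nfkb1).

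The last 100 bases before the Nfkbia start hold a run that matches the NF-kB letters (GGGA, any base and TTTCC), which begins 29 bases before the start and reads on the opposite strand. It is shown in capitals because Nfkbia is the standard feedback target of the factor.
Nfkbia, chr12:55492648-55492747, minus strand: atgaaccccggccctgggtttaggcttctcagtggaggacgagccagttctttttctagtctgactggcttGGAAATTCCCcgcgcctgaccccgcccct
The same letters, on either strand of the 250 bases, stood in 0.524% of promoters of genes tested and in 4 of the 35 promoters available for the inflammatory list (11.4%). Among inflammatory genes that rose they stood in 1 of 13 promoters (7.69%), that of Nfkbia.

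Surface molecules of activated macrophages completed this list. Cd40, which T cells engage, had 2371, 1805 and 2142 normalized counts in WT and 3529, 5945 and 4656 in gp91phox-/- (log2 fold change 1.14, SE 0.19, adjusted p = 0.00567). The adhesion molecule Vcam1 had 12089, 11029.6 and 12401 in WT and 24991, 30374 and 20782 in gp91phox-/- (log2 fold change 1.08, SE 0.15, adjusted p = 0.00257). Gpr84, a receptor for medium-chain fatty acids, had 669.6, 617 and 596 in WT and 1541, 1586 and 2279 in gp91phox-/- (log2 fold change 1.50, SE 0.17, adjusted p = 0.000697). No gp91phox-/- library fell to the WT range in these genes. Icam1 (0.78), Cd83 (0.84) and Ier3 (0.70) also rose with any library left out. Marcksl1 (0.61), Birc3 (0.58) and Nfkbie (0.57) lost the call, Marcksl1 without any 1 library other than gp91phox-/- 1 (adjusted p up to 0.104), Birc3 without WT 3 or gp91phox-/- 2 (adjusted p up to 0.0756) and Nfkbie without gp91phox-/- 3 (adjusted p = 0.0514). The member that fell was Lcn2, which binds bacterial siderophores; its WT libraries were 240.3, 1048 and 175 and its gp91phox-/- libraries 40.0, 40.4 and 128 (adjusted p = 0.036), and the call was lost without any 1 library other than WT 3 or gp91phox-/- 3 (adjusted p up to 0.106). WT 2 was the highest and no libraries overlapped. The count of inflammatory genes that rose was 11 with no mean-variance trend and 34 in DESeq2.

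**Figure D3:**
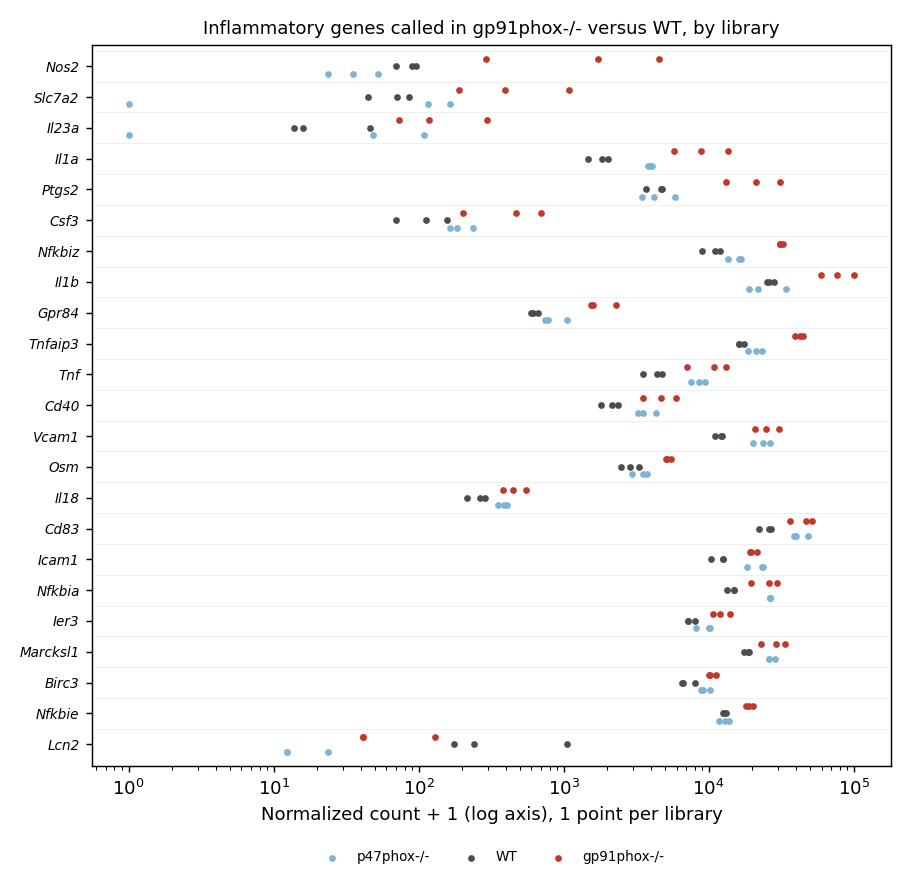
Normalized count + 1 (x axis, log scale) of the 23 inflammatory genes called between gp91phox-/- and WT, 1 point per library, ordered by log2 fold change from the top. In 22 genes the gp91phox-/- points (red) lie above all WT points (dark grey), as in all 598 genes called higher, and in Lcn2 below them. The p47phox-/- points (light blue) include listed zeros for Slc7a2 and Il23a.

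Some sensors of microbes rose as well. Tlr2, the receptor for bacterial lipoproteins, had 9850.2, 6993 and 8728 normalized counts in WT and 18249, 16185 and 15869 in gp91phox-/- (log2 fold change 0.99, SE 0.14, adjusted p = 0.00317). Nlrp3, the sensor of the inflammasome that releases IL-1 beta, had 16047, 11842 and 14101 in WT and 29759, 38154 and 39413 in gp91phox-/- (log2 fold change 1.35, SE 0.16, adjusted p = 0.000978), and Nlrp1b, another inflammasome sensor, had 554, 416 and 539 in WT and 1067, 1003 and 1081 in gp91phox-/- (log2 fold change 1.07, SE 0.15, adjusted p = 0.00279). The 2 groups stayed apart in each. Of 34 tested Toll-like receptors, NOD-like receptors and adaptors, 12 rose (35.3%, against 4.37% of all genes), 0 fell and 22 were not called (median 0.42). Tlr4 (0.69), the adaptor Myd88 (0.59), Casp1 (0.65) and the inflammasome adaptor Pycard (0.57) were among the 12, while Tlr9 (-0.06), Nod2 (0.17) and Nlrc4 (0.31) were not called. The count was 4 without gp91phox-/- 3 and with no mean-variance trend, 6 without gp91phox-/- 2 and in the fit of all 3 groups and 7 without WT 1, WT 2 or WT 3. Calls were lost for Tlr4 without WT 1 or WT 2 (adjusted p up to 0.0555), Myd88 without gp91phox-/- 3 (adjusted p = 0.0567), Casp1 without WT 3, gp91phox-/- 2 or gp91phox-/- 3 (adjusted p up to 0.0605) and Pycard without gp91phox-/- 2 or gp91phox-/- 3 (adjusted p up to 0.0748).

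Several chemokines that recruit monocytes rose. Ccl12, a monocyte attractant, had 239, 288 and 296 normalized counts in WT and 1018, 1901 and 1719 in gp91phox-/- (log2 fold change 2.45, SE 0.23, adjusted p = 0.000275). Ccl8 had 2031, 1836 and 2671 in WT and 5728, 13042 and 7141 in gp91phox-/- (log2 fold change 1.91, SE 0.27, adjusted p = 0.00279), and Ccl4 rose from 2036 ± 431 to 5027 ± 1249 (SD, n = 3; 1.30). WT and gp91phox-/- libraries were separate in all 3. Ccl8 and Ccl12 lie in one cluster on chromosome 11 with Ccl2 (1.32) and Ccl7 (1.50), which also rose but lost the call, Ccl2 without WT 2 or WT 3 (adjusted p up to 0.0529) and Ccl7 without WT 2, WT 3 or gp91phox-/- 2 (adjusted p up to 0.0685). In the list of 28 tested chemokines, 9 rose (32.1%, against 4.37% of all genes), 0 fell and 19 were not called (median 0.20). The count was 4 with no mean-variance trend and 5 without WT 2 or WT 3. Among those not called were Ccl5 (-0.27), Ccl22 (-0.79), Cxcl1 (0.44) and Cxcl16 (0.53).

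Cx3cr1, the fractalkine receptor that marks mature gut macrophages, was the chemokine receptor that rose most. It had 4995, 4059.8 and 5542 normalized counts in WT and 24878, 17832 and 14746 in gp91phox-/- (log2 fold change 1.95, SE 0.19, adjusted p = 0.000383), and the lowest gp91phox-/- library was more than 2-fold above the highest WT library. The p47phox-/- libraries, 598, 5056 and 899, spread widely, and in the fit of all 3 groups the call of gp91phox-/- against WT was lost. Ccrl2, which binds the chemoattractant chemerin, had 10518, 8939 and 8806 in WT and 24574, 25082 and 23670.2 in gp91phox-/- (log2 fold change 1.38, SE 0.12, adjusted p = 0.000152), with the 3 gp91phox-/- values near each other. Of 25 tested receptors, 8 rose (32%, against 4.37% of all genes) and 4 fell (16%, against 6.8%). P2ry13 (0.81) and Ccr1 (1.16) rose with any library left out, and Ccr6 (-7.30), Cxcr5 (-6.01), Ccr10 (-3.74) and Ccr7 (-1.47), receptors of B cells, plasma cells and migrating dendritic cells, fell. The count of those that rose was 3 with no mean-variance trend and 5 without WT 1 or gp91phox-/- 2, and of those that fell 2 with no mean-variance trend. Ccr2, the receptor that brings monocytes into the gut, was not called (0.88, adjusted p = 0.0621).

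Of 41 tested genes of mature resident gut macrophages, 8 rose (19.5%, against 4.37% of all genes), 0 fell and 33 were not called (median 0.28). Timd4, a receptor for dying cells on long-lived macrophages, had 958, 784 and 859.5 normalized counts in WT and 1904, 2611 and 2303 in gp91phox-/- (log2 fold change 1.38, SE 0.15, adjusted p = 0.00059), the lowest gp91phox-/- value above the highest WT value. Cd163 (0.64), the haemoglobin scavenger, and the Fc receptor Fcgr1 (0.65) rose with any library left out, while Maf (0.84), Siglec1 (0.56) and Trem2 (0.47) lost the call, Maf without WT 1 (adjusted p = 0.0549), Siglec1 without WT 1 or WT 3 (adjusted p up to 0.0604) and Trem2 without any 1 library other than gp91phox-/- 3 (adjusted p up to 0.136). Folr2 (-0.01) and Lyve1 (-0.10), which mark vessel-associated macrophages, were not called. The count was 3 with no mean-variance trend and in the fit of all 3 groups and 5 without WT 1. In bulk samples, a change in the number of cells of a type cannot be told apart from a change in RNA per cell.

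Monocyte genes were called at shares near those of all genes. Of 35 tested, 2 rose (5.71%, against 4.37% of all genes), 3 fell (8.57%, against 6.8%) and 30 were not called (median 0.08). Ly6c2 (-0.54), Vcan (-0.15), Fn1 (-0.34) and Plac8 (0.41) were not called. Ace, the angiotensin-converting enzyme, had 252, 273 and 216 normalized counts in WT and 90.1, 45.3 and 80.5 in gp91phox-/- (log2 fold change -1.82, SE 0.29, adjusted p = 0.00504), and Spn (CD43) had 486, 701 and 576 in WT and 313, 221 and 242 in gp91phox-/- (log2 fold change -1.18, SE 0.20, adjusted p = 0.00643). Both genes are used to mark Ly6C low monocytes, and the groups were apart in each. Ms4a6c rose (0.66) with any library left out, and the count of those that rose was 1 without WT 1, WT 3, gp91phox-/- 2 or gp91phox-/- 3 and with no mean-variance trend, 4 without WT 2 and 5 in DESeq2.

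Of 45 tested transcription factors and growth factor receptors of the macrophage lineage, 6 rose (13.3%, against 4.37% of all genes). The 1 that fell made up 2.22%, against 6.8%. Tfec, a relative of the lysosomal regulator MITF, had 270.1, 206 and 321 normalized counts in WT and 579, 702 and 768 in gp91phox-/- (log2 fold change 1.37, SE 0.20, adjusted p = 0.00317). Egr2 (1.08) and Id2 (0.86) also rose with any library left out. In each of these the 2 groups were separate. The lineage factors Spi1 (-0.23), Cebpb (0.13), Irf8 (-0.01) and Runx3 (-0.15) were not called. The receptor that fell, Flt3 (-3.38), belongs to dendritic cells and progenitors. The count was 3 with no mean-variance trend for those that rose and 2 without gp91phox-/- 2 and 3 in DESeq2 for those that fell.

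Uptake and repair genes moved in both directions. Among 46 tested receptors of phagocytosis and scavenging, 8 rose (17.4%, against 4.37% of all genes) and 3 fell (6.52%, against 6.8%). The count of those that rose was 2 with no mean-variance trend and 5 without WT 3, gp91phox-/- 2 or gp91phox-/- 3. Msr1, a scavenger receptor for modified lipoprotein and bacteria, rose from 7349 ± 372 to 13231 ± 1074 (SD, n = 3; 0.85), and Clec4n, the fungal sensor dectin-2, also rose (1.02). Itgb3, the integrin beta 3 chain, had 375, 792 and 707 normalized counts in WT and 83.7, 76.0 and 67.1 in gp91phox-/- (log2 fold change -2.96, SE 0.29, adjusted p = 0.000333), every gp91phox-/- value below every WT value. Fcgr4, a receptor for IgG, rose (0.91). Of 28 tested genes of alternative activation, 6 rose (21.4%, against 4.37% of all genes), among them Arg2 (1.24), the lectin Mgl2 (0.94) and Egr2, and 0 fell. Arg1 (-0.02), Retnla (0.79) and Chil3 (-1.86, adjusted p = 0.117) were not called. Arg2 lost the call without WT 3 (adjusted p = 0.0556), and the count was 1 with no mean-variance trend and 3 without WT 3.

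Gpnmb, a glycoprotein of lipid-laden macrophages, had 10245, 8048 and 6702 normalized counts in WT and 2964, 3007 and 1802 in gp91phox-/- (log2 fold change -1.70, SE 0.22, adjusted p = 0.00162). All 3 gp91phox-/- libraries were below WT, as were the p47phox-/- libraries (3786, 3650.4 and 3269). Of 23 tested genes of lipid-associated macrophages, 4 fell (17.4%, against 6.8% of all genes) and 3 rose (13%, against 4.37%). Their median was -0.001, and Trem2, Tyrobp and Gpr84 were those that rose. With 1 library left out, 1 to 5 fell and 1 to 3 rose, and with no mean-variance trend 1 fell and 1 rose. Of 40 tested genes of TGF-beta and IL-10 signalling, 4 rose (10%, against 4.37% of all genes) and 4 fell (10%, against 6.8%). With no mean-variance trend the count was 2 for those that rose. For those that fell it was 2 without WT 1, WT 2, WT 3, gp91phox-/- 2 or gp91phox-/- 3. It was also 2 with no mean-variance trend and in the fit of all 3 groups. Htra1, a secreted protease that cuts matrix and TGF-beta family proteins, had 3608, 2277 and 3814 in WT and 352, 475 and 513 in gp91phox-/- (log2 fold change -2.83, SE 0.22, adjusted p = 9.86e-05). Smad3, which carries the TGF-beta signal to the nucleus, fell from 2991 ± 287 to 1755 ± 74.7 (SD, n = 3; -0.77), and no library of the 2 groups overlapped in either gene. Skil (0.79), an inhibitor of SMAD signalling, rose with any library left out, as did Id2 and Il10, and Lrrc32 (0.77), which holds latent TGF-beta at the cell surface, rose but lost the call without any 1 library other than WT 1 or gp91phox-/- 3 (adjusted p up to 0.173). The receptors Tgfbr1 (0.27), Tgfbr2 (0.18) and Il10ra (0.10) were not called. Ferroportin (Slc40a1; 1.02), which exports iron, and ceruloplasmin (Cp; 1.06), which oxidizes it, rose with any library left out.

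Of 16 tested oxidase subunits and related genes, 3 rose (18.8%, against 4.37% of all genes). The 1 that fell (6.25%, against 6.8%) was the proton channel Hvcn1 (-0.65). The count of those that rose was 1 without WT 1, WT 2, WT 3, gp91phox-/- 2 or gp91phox-/- 3 and with no mean-variance trend, and of those that fell 0 without WT 1, WT 2, gp91phox-/- 2 or gp91phox-/- 3 and with no mean-variance trend. Cyba had 10405, 9303 and 8838 normalized counts in WT and 11614, 14002 and 13398 in gp91phox-/- (log2 fold change 0.45, SE 0.12, adjusted p = 0.046), a call that was lost without any 1 library other than gp91phox-/- 1 (adjusted p up to 0.169). Ncf1, the gene targeted in the other knockout, had 10066, 8989.8 and 10815 in WT and 13618, 12136 and 13365 in gp91phox-/- (log2 fold change 0.39, SE 0.12, adjusted p = 0.0635); the lowest gp91phox-/- library was above the highest WT library, but it was not called. Ncf4 (-0.17) and Rac2 (-0.24) were not called either. Pak1, a kinase that acts below Rac, rose from 1409.9 ± 148 to 2465 ± 264 (SD, n = 3; 0.81).

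The gene of the main antioxidant regulator rose. Nfe2l2, which encodes NRF2, the transcription factor of the antioxidant response, had 12564, 10382 and 12521 normalized counts in WT and 24843, 24858 and 23308 in gp91phox-/- (log2 fold change 1.05, SE 0.12, adjusted p = 0.000968), every gp91phox-/- library above every WT library. Among 44 tested genes of the NRF2, glutathione and peroxide list, 2 rose (4.55%, against 4.37% of all genes), 4 fell (9.09%, against 6.8%) and 38 were not called, with a median of -0.11. The count was 1 without WT 1, WT 2, WT 3, gp91phox-/- 2 or gp91phox-/- 3 and with no mean-variance trend and in the fit of all 3 groups, 5 without gp91phox-/- 1 and 8 in DESeq2 for those that rose and 1 without gp91phox-/- 2, 2 without WT 1 or WT 3 and with no mean-variance trend and 7 in DESeq2 for those that fell. The NRF2 targets Nqo1 (-0.54), Gclm (-0.49), Srxn1 (-0.36) and Txnrd1 (-0.21) were not called, and Gclc, of glutathione synthesis, fell (-0.60), a call lost without gp91phox-/- 2 (adjusted p = 0.0507). Gstt1, a glutathione transferase, had 108, 123 and 114 in WT and 25.5, 29.0 and 25.9 in gp91phox-/- (log2 fold change -2.06, SE 0.29, adjusted p = 0.00284), the groups apart. Sod1 (-0.24), Sod2 (0.45), Cat (-0.10), Gpx1 (0.21) and Prdx1 (-0.02), which remove superoxide and peroxide, were not called. Gpx4 was the other member that rose (adjusted p = 0.0415), a call lost without any 1 library other than gp91phox-/- 1 (adjusted p up to 0.157). Keap1 (adjusted p = 0.0357) and Pgd (adjusted p = 0.0419) also fell. Their calls were lost with some libraries left out (adjusted p up to 0.125 and 0.149).

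Several lipid and stress genes fell. Scd1, the desaturase that makes oleate, had 2136, 5397 and 3523 normalized counts in WT and 95.5, 82.7 and 76.9 in gp91phox-/- (log2 fold change -5.33, SE 0.29, adjusted p = 2.13e-05), all 3 gp91phox-/- libraries more than 20-fold below the lowest WT library. In the cholesterol and fatty acid list 1 of 40 rose and 5 fell (12.5%, against 6.8% of all genes), the latter count being 2 without gp91phox-/- 2 or gp91phox-/- 3 and with no mean-variance trend, 3 without WT 1, WT 2 or WT 3 and 8 in DESeq2. Angptl4, an inhibitor of lipoprotein lipase, had 322, 355 and 572 in WT and 135, 100.2 and 89.5 in gp91phox-/- (log2 fold change -1.91, SE 0.27, adjusted p = 0.00263), and Ndrg1, which hypoxia induces, had 5684, 4005 and 5353 in WT and 2228, 2520.2 and 2212 in gp91phox-/- (log2 fold change -1.10, SE 0.15, adjusted p = 0.0021). The groups were apart in these. In the glycolysis and hypoxia list 1 of 38 rose and 1 fell (2.63% each, against 4.37% and 6.8% of all genes). Slc2a1 (0.42), Hif1a (0.37), Ldha (-0.01) and Vegfa (-0.01) were not called.

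The unfolded protein response list had 4 lower of 29 (13.8%, against 6.8% of all genes). Asns (-1.59), Chac1 (-2.94) and Trib3 (-1.98), all targets of ATF4 in amino acid shortage, were 3 of them, and the chaperones Hsp90b1 (-0.12) and Dnajb9 (0.19) and Xbp1 (-0.24) were not called. The count was 0 without WT 2 or gp91phox-/- 3, 1 without WT 1 or WT 3 and in the fit of all 3 groups and 2 without gp91phox-/- 2 and with no mean-variance trend. Of 46 subunits of oxidative phosphorylation, 7 rose (15.2%, against 4.37% of all genes), by 0.46 to 0.69, and 0 fell. The count was 0 without WT 1, WT 3, gp91phox-/- 2 or gp91phox-/- 3 and with no mean-variance trend. It was 1 in the fit of all 3 groups. Of 48 ribosomal protein genes 4 rose (8.33%, against 4.37% of all genes). That count was 0 without WT 1, WT 3, gp91phox-/- 2 or gp91phox-/- 3, with no mean-variance trend and in the fit of all 3 groups. It was 9 without WT 2 and in DESeq2. Immediate early and heat shock genes, which respond to tissue dissociation, rose in 7 of 41 (17.1%, against 4.37% of all genes). That count was 2 with no mean-variance trend and 3 without WT 3 or gp91phox-/- 2. It was 4 without WT 1, WT 2 or gp91phox-/- 1 and 13 in DESeq2. The part of these genes in the other results was not tested.

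Among 48 cell cycle genes, 3 rose (6.25%, against 4.37% of all genes) and 0 fell. The median was 0.55, and 46 of the 48 had a positive fold change, as did 6996 of the 13683 genes tested. Mki67, the proliferation marker, had 2187, 2276 and 1508 normalized counts in WT and 4406, 4404 and 6281 in gp91phox-/- (log2 fold change 1.34, SE 0.19, adjusted p = 0.00298), and the cyclin Ccnd1 rose (0.66), with no overlap in either. Top2a (1.06, adjusted p = 0.0791), Cdk1 (0.96) and Ccnb1 (0.90) were not called. The count was 7 without gp91phox-/- 1 and 11 in DESeq2.

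In prostaglandin synthesis and signalling, 4 of 23 rose (17.4%, against 4.37% of all genes). Ptgs2 stood among them with Ptger4, a receptor for prostaglandin E2 (0.87), Pla2g4a, the phospholipase that frees its precursor (0.85), and Hpgd, which degrades it (0.76). The prostacyclin receptor Ptgir had 246, 323 and 357 normalized counts in WT and 106, 100.2 and 158 in gp91phox-/- (log2 fold change -1.35, SE 0.25, adjusted p = 0.00927) and was the member that fell. Its gp91phox-/- libraries were below WT. Pla2g4a and Hpgd lost the call, Pla2g4a without WT 1, WT 3 or gp91phox-/- 2 (adjusted p up to 0.0581) and Hpgd without WT 1, WT 3 or gp91phox-/- 2 (adjusted p up to 0.0631), and the count was 1 with no mean-variance trend and 2 without WT 1, WT 3 or gp91phox-/- 2.

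Protease and protease inhibitor genes were also among those that rose, 5 of 36 tested (13.9%, against 4.37% of all genes). Of the 36, 2 fell (5.56%, against 6.8%). The count of those that rose was 3 without WT 1, gp91phox-/- 2 or gp91phox-/- 3 and with no mean-variance trend. It was 9 in DESeq2. For those that fell the count was 1 without WT 1 or WT 3 and with no mean-variance trend. It was 4 without WT 2 and in DESeq2. Serpina3f had 361, 161 and 387 normalized counts in WT and 1844, 2302 and 1627 in gp91phox-/- (log2 fold change 2.75, SE 0.30, adjusted p = 0.000697), and its neighbour Serpina3g, an inhibitor of cathepsins, had 912, 879.7 and 752 in WT and 2382, 3250.3 and 2817 in gp91phox-/- (log2 fold change 1.72, SE 0.15, adjusted p = 0.000151). Plau, the urokinase that activates plasminogen, had 11604, 6603 and 12124 in WT and 23379, 26202 and 24242 in gp91phox-/- (log2 fold change 1.33, SE 0.21, adjusted p = 0.00478). In these 3 genes no libraries overlapped, though reads of the close copies Serpina3f and Serpina3g may be split uncertainly. Tln2, a talin that ties integrins to actin, rose (1.62), and Adam23 fell (-2.08). Mir155hg, the host transcript of an inflammatory microRNA, had 152, 137 and 106 in WT and 350.3, 941 and 1136 in gp91phox-/- (log2 fold change 2.46, SE 0.39, adjusted p = 0.00437), and the antiproliferative Btg2 had 6842, 7292 and 7893 in WT and 22301, 18177 and 16577 in gp91phox-/- (log2 fold change 1.36, SE 0.14, adjusted p = 0.000404), with both groups separate. Rad51b, a DNA repair gene, rose (2.00).

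**Figure D4:**
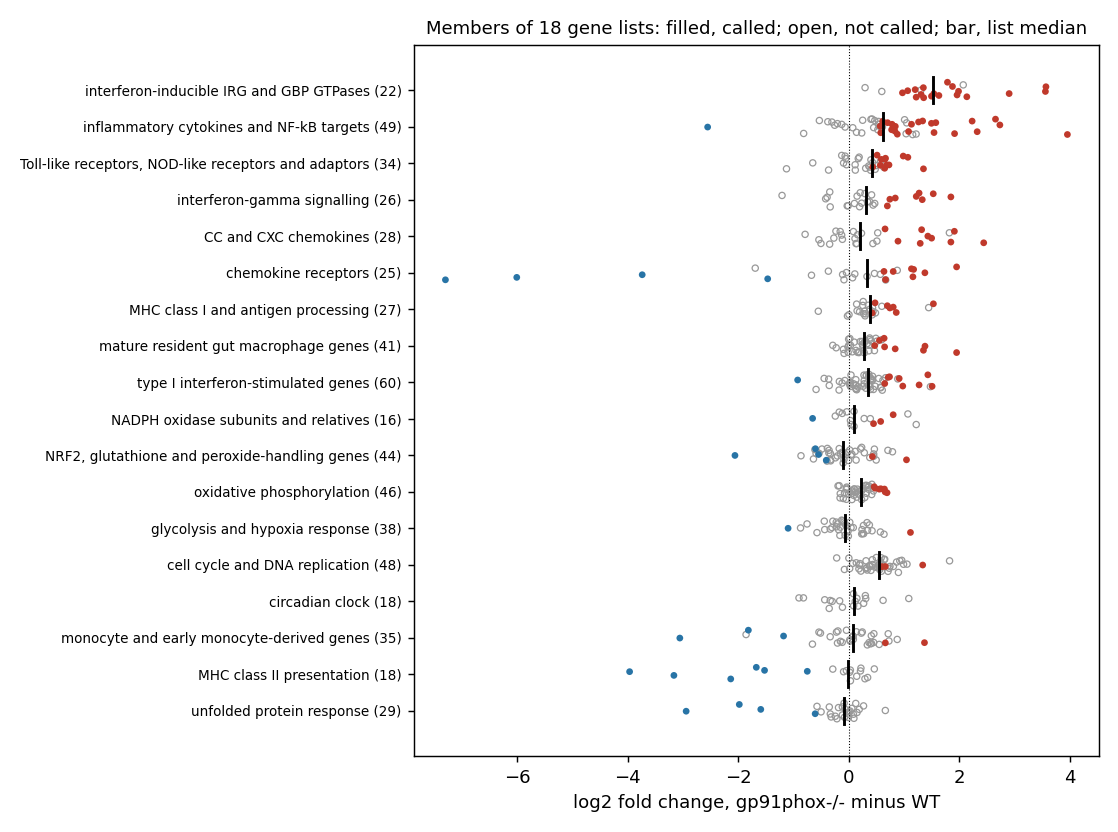
Log2 fold change, gp91phox-/- minus WT (x axis), of each tested member of 18 gene lists (number tested in parentheses); 1 point is 1 gene, filled where called (red higher, blue lower), and the bar is the list median. The IRG and GBP list has 18 of 22 members filled and a median of 1.52, and the dotted line marks the median of all genes, 0.01.

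Genes of B cells made up the far end of the lower side. Of 27 tested B cell markers, 23 fell (85.2%, against 6.8% of all genes), 0 rose and 4 were not called, with a median of -5.61. Blk, a kinase of B cell receptor signalling (chromosome 14, 63372837 to 63417187), had 841, 1662 and 1099 normalized counts in WT and 2.73, 1.21 and 14.3 in gp91phox-/- (log2 fold change -7.85, SE 0.62, adjusted p = 0.0001). The transcription factors of this lineage fell alongside: Ebf1 (-5.61), Spib (-6.02) and Pou2af1 (-5.57). All gp91phox-/- libraries were more than 50-fold below all WT libraries in Blk.

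Other B cell markers fell by less. Ighm had 8673, 14028 and 8960.0 normalized counts in WT and 4257, 3738 and 2858 in gp91phox-/- (log2 fold change -1.53, SE 0.21, adjusted p = 0.00217), and Cd79b had 976, 1657 and 1181 in WT and 538, 486 and 454 in gp91phox-/- (log2 fold change -1.33, SE 0.19, adjusted p = 0.00301). Cd37 (-1.46), Blnk (-0.74) and Cd22 fell too, and Bank1 (-0.29), Ralgps2 (-0.34), Cd72 (-0.13) and Bach2 (-0.96, adjusted p = 0.055) were not called. The groups did not overlap in Ighm or Cd79b. The summed level of the B cell list in p47phox-/-, 47875 to 67752, was near that of WT. Of the 27 B cell markers in the table, Vpreb3 was at 0 in all gp91phox-/- libraries and 0 were at 0 in all WT libraries.

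Antibody genes followed. Of 117 immunoglobulin segments tested, 80 fell and 0 rose, with a median of -4.74. Jchain, which links IgA into dimers, had 6743, 19473 and 6603 normalized counts in WT and 618, 1521 and 404 in gp91phox-/- (log2 fold change -3.72, SE 0.50, adjusted p = 0.00217). WT 2 was about 3-fold above the other WT libraries, but all gp91phox-/- libraries were below each of them. Plasma cell markers fell in 12 of 20 tested (60%, against 6.8% of all genes), among them Mzb1 (-4.25) and Derl3 (-2.90). Sdc1 (-0.53), Tnfrsf17 (-0.52) and Irf4 (-0.15) were not called. In the fit without B lineage genes, 18 IRG and GBP genes and 26 inflammatory genes were called higher. That fit changed only the scaling and the set of genes tested, so it cannot show what part B lineage cells had in these calls.

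Genes outside the B and plasma cell marker lists fell as well. The fit without B lineage genes did not remove them, and which cells they came from was not tested. Ccr6 (-7.30), Dtx1 (-6.36), Btla (-5.64), Lax1 (-5.39), Ikzf3 (-5.17), Satb1 (-3.83), Ets1 (-2.44) and the GTPases of lymphocyte survival Gimap1 (-4.76), Gimap3 (-4.43) and Gimap4 (-3.65) kept their calls in every alternative that tested them. Chst3, a chondroitin sulfotransferase, had 390.3, 1132 and 667 normalized counts in WT and 0.910, 1.81 and 3.58 in gp91phox-/- (log2 fold change -7.84, SE 0.49, adjusted p = 3.51e-05). Cpm, a carboxypeptidase, had 346, 648 and 407 in WT and 19.1, 12.1 and 7.16 in gp91phox-/- (log2 fold change -5.13, SE 0.39, adjusted p = 9.86e-05), and Heg1 had 1105, 1516 and 1229.8 in WT and 152, 115 and 157 in gp91phox-/- (log2 fold change -3.17, SE 0.19, adjusted p = 2.67e-05), with the gp91phox-/- libraries far below WT in all 3. Il22ra2, the decoy receptor of IL-22 that gut dendritic cells make, had 581, 1745 and 529 in WT and 20.9, 55.5 and 85.0 in gp91phox-/- (log2 fold change -4.10, SE 0.55, adjusted p = 0.00206). Lower too at high levels were Vat1 (-1.10), Fam107b (-1.03) and Fam129b (-1.31), of which the last lost its call without WT 1, WT 2 or WT 3 (adjusted p up to 0.0552).

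For 20 genes, 1 group had no read and each library of the other had at least 10 normalized counts. Genes read at lower levels in 1 group only are not counted here. Of the 20, 16 were read in WT only, 4 of them immunoglobulin segments. Cacna1i, a T-type calcium channel, had 298, 436 and 315 in WT and was at least 458-fold lower in gp91phox-/-, taking 3 reads in the whole group as the floor. Vpreb3, a B cell receptor assembly protein, had 72.9, 144 and 41.1 and was at least 116-fold lower. Il5ra, Rgs13 and Grm6 were others of this kind. The other 4 were read in gp91phox-/- only. Clca4b had 15.5, 85.1 and 73.4 there, at least 75.6-fold higher than WT, and Atp12a, a colon proton pump, had 59.1, 17.5 and 19.7, at least 36.6-fold higher. Both are genes of the gut epithelium, and the calls were lost for Clca4b without gp91phox-/- 2 (adjusted p = 0.0563) and Atp12a without gp91phox-/- 1 (adjusted p = 0.0724).

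Of 18 tested genes on the list of MHC class II presentation, 6 fell (33.3%, against 6.8% of all genes) and 0 rose. The molecules that all presenting cells carry were not called: H2-Aa (0.21), H2-Ab1 (0.14), H2-Eb1 (0.03), Cd74 (-0.04) and H2-DMa (0.02). H2-Ob, a chain of the peptide-loading inhibitor H2-O that B cells and dendritic cells make, had 2207, 3849 and 2529 normalized counts in WT and 742, 698 and 486 in gp91phox-/- (log2 fold change -2.14, SE 0.23, adjusted p = 0.000546). H2-Oa (-1.67), H2-DMb2 (-1.52) and H2-Eb2 (-3.97) fell as well, and the libraries of the groups were apart in all 4. The rest of the 6 were Cd209a, a lectin and not an MHC class II gene, and Rfxap. The call of Rfxap was lost without any 1 library other than WT 3 (adjusted p up to 0.142).

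Of 22 tested markers of conventional dendritic cells, 7 fell (31.8%, against 6.8% of all genes). Another 14 were not called and 1 rose (4.55%, against 4.37%), with a median of -0.38. The one that rose, Tlr3 (0.73), lost its call without any 1 library (adjusted p up to 0.11). Cd209a, a lectin of the CD11b+ subset, had 311, 494 and 354 normalized counts in WT and 66.4, 29.6 and 35.8 in gp91phox-/- (log2 fold change -3.17, SE 0.33, adjusted p = 0.000516), and Itgae (CD103) had 98.6, 179 and 61.3 in WT and 18.2, 10.3 and 16.1 in gp91phox-/- (log2 fold change -2.75, SE 0.46, adjusted p = 0.00628). No gp91phox-/- value reached the WT range. Zbtb46 (-0.65), Xcr1 (-0.67), Clec9a (-0.25) and Batf3 (0.32) were not called, and the summed level of the list was 71648 to 75411 in WT and 70005 to 76501 in gp91phox-/-. Itgax and Irf8 of this list are also on the list of mature resident gut macrophage genes, so the sum does not measure dendritic cells alone. Of 12 tested T cell markers 2 fell (16.7%, against 6.8% of all genes), Cd2 (-3.42) and Lck (-2.70). The sum of the 22 listed was 3145 to 3364 in WT and 1428 to 2704 in gp91phox-/-.

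Markers of gut wall cells were read in both groups. The 31 epithelial markers summed to 2995 to 6714 in WT and 4494 to 10212 in gp91phox-/-, so the groups overlapped. Of 28 tested, 3 rose (10.7%, against 4.37% of all genes, median 0.89). Fcgbp, a mucus protein of goblet cells, had 3.31, 6.61 and 0 normalized counts in WT and 535, 57.9 and 268 in gp91phox-/- (log2 fold change 5.99, SE 0.92, adjusted p = 0.00399), all 3 gp91phox-/- libraries above WT with gp91phox-/- 2 the lowest; the p47phox-/- libraries had 6.71, 44.0 and 667. The goblet cell genes Zg16 (4.60) and Tff3 (4.43) lost the call, Zg16 without any 1 library other than WT 1 or gp91phox-/- 2 (adjusted p up to 0.0852) and Tff3 without any 1 library other than WT 1 or gp91phox-/- 3 (adjusted p up to 0.0965), and the count was 1 without WT 3 or gp91phox-/- 1 and with no mean-variance trend and in the fit of all 3 groups. Epcam (0.32), Krt8 (0.44) and Muc2 (1.18) were not called. Smooth muscle markers summed to 1716 to 2542 in WT and 2591 to 3734 in gp91phox-/-. Of 13 tested, 3 rose (23.1%, against 4.37% of all genes). That count was 0 without WT 2, WT 3, gp91phox-/- 2 or gp91phox-/- 3 and with no mean-variance trend. It was 1 without WT 1 and in the fit of all 3 groups. Fibroblast markers summed to 29909 to 32277 in WT and 28017 to 31820 in gp91phox-/-. Endothelial markers summed to 8652 to 15734 and 8019 to 10666. Of 18 tested, 3 fell (16.7%, against 6.8% of all genes, median -0.73). That count was 0 with no mean-variance trend and 0 to 5 with 1 library left out. Neutrophil markers summed to 17359 to 20179 and 16283 to 25865. S100a9, Ly6g and Elane were at 0 in all WT libraries, and Camp, Ngp and Stfa2 at 0 in all of both groups. Of 22 mast cell, basophil and eosinophil markers, 14 were at 0 in all WT and 10 in all gp91phox-/- libraries. The part of these cells, and of the B and plasma cells, in the other results was not tested. The fit without B lineage genes only took listed markers and immunoglobulin segments out of the scaling and the test.

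**Figure D5:**
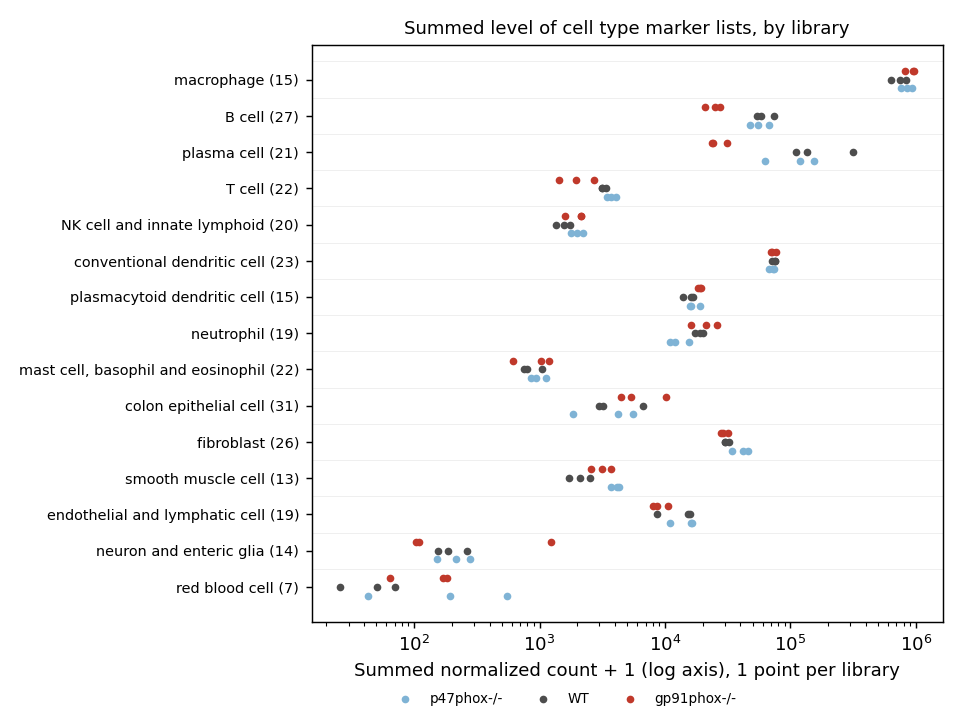
Summed normalized count + 1 (x axis, log scale) of 15 marker lists (number of genes in parentheses), 1 point per library. B cell and plasma cell sums of the gp91phox-/- libraries (red) lie below all WT (dark grey) and p47phox-/- (light blue) libraries, while macrophage markers sum to at least 630753 in every library.

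Some changes were also tested against the other oxidase knockout. The comparison gp91phox-/- versus p47phox-/-, in the fit of all 3 groups, called 1424 of the 13683 genes (10.4%). It was 944 without gp91phox-/- 1, 754 without gp91phox-/- 2 and 842 without gp91phox-/- 3. Ccrl2 was 9338, 9611 and 9420.3 in p47phox-/-, near WT and below gp91phox-/- (log2 difference 1.37, adjusted p = 2.41e-05). Nfe2l2 was 12050.3, 12264 and 11792 (log2 difference 1.02, adjusted p = 0.00034) and Ptgs2 5826, 3455 and 4202 (log2 difference 2.22, adjusted p = 0.000419), so that the gp91phox-/- level stood above both other groups. Il1b (log2 difference 1.67, adjusted p = 0.000946), Tnfaip3 (log2 difference 1.00, adjusted p = 0.000662) and Gbp6 (log2 difference 1.17, adjusted p = 0.00548) were also higher in gp91phox-/- than in p47phox-/-. Blk was 1225, 1667 and 899 in p47phox-/- (log2 difference -7.93, adjusted p = 7.08e-06).

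Other genes changed against WT but were not called between the knockouts. Ccl8 was 6486, 9175 and 7442 in p47phox-/- (log2 difference 0.09, adjusted p = 0.857), Vcam1 26424, 20325 and 23549 (log2 difference 0.11, adjusted p = 0.705) and Plau 20049, 20432 and 21719 (log2 difference 0.25, adjusted p = 0.462). In these the p47phox-/- libraries lay on the gp91phox-/- side of WT, and a p over the threshold does not show that the knockouts were alike. Both knockouts are set against the same WT libraries.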

How the data were processed

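RNA was extracted with a Qiagen micro kit and sequenced as paired-end libraries. Per the labels' protocols and the submitters' processing notes, reads were demultiplexed with bcl2fastq 2.19, trimmed with Cutadapt, mapped to mm10 with STAR 2.5.2b and counted with featureCounts, and DESeq2 was named; strand setting and annotation are not given in the sources used here. What the authors deposited is a signal, normalized counts scaled by library. Whole reads were recovered for 100% of values (tolerance 0.01), 31141107 to 52797368 per library over 9 libraries, and size factors came from the same steps. Depth limits low genes: against a group with no read, only a bound on a floor of 3 reads is given, which covers counting error only.

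Values were tested as log2(normalized count + 1) in limma 3.58.1 under R 4.3.3, 3 libraries against 3, with a mean-variance trend and Benjamini-Hochberg adjustment over 13683 genes, called at an adjusted p under 0.05. The gp91phox-/- versus p47phox-/- contrast came from 1 fit of 9 libraries. In simulated data with 200 changed genes, 45% of 2-fold and 76% of 4-fold changes were recovered, with 9 false calls among 130. The 32 gene lists and 15 marker lists are described by counts and medians and were not tested. Members, lists and rules were chosen with earlier results of these data known. Named genes were those called, without overlap between the groups and without immunoglobulin, T cell receptor or unnamed genes: the 15 per direction with the greatest change at a mean of at least 50, the 20 per direction at a mean of at least 200 outside the B and plasma cell lists, the 10 per direction with the highest mean at a change of at least 2-fold, the 10 per direction with the lowest p and genes read in 1 group only, besides called or defining list members and the targeted genes. Genes in several lists count in each. No libraries were identical (r 0.958 to 0.980 within groups). The unnamed IRG family members are in their list. Coordinates are from the RefSeq gene table of GRCm38.p6, which is the build of mm10 (13448 members matched by symbol). Alternatives were other pseudocounts, filters, scalings and priors, array weights, a block for the replicate number, leaving out each library, and 2 count models on the recovered reads (DESeq2 1.42.0, edgeR 4.0.16). A fit without B lineage genes was added after seeing the data. Motif searches used Python 3.11.15.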

Additional observations from a re-analysis of the deposited data

Results flagged for a closer look

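Nos2 was flagged because the change against WT differed in sign between the knockouts and the difference itself was called in limma. Nos2, the inducible nitric oxide synthase, had 34.4, 22.9 and 51.4 normalized counts in p47phox-/-, all below WT (95.3, 68.3 and 88.7), while gp91phox-/- had 289, 1723 and 4513. The log2 difference from WT was 3.96 in gp91phox-/- and -1.25 in p47phox-/-, and gp91phox-/- minus p47phox-/- was 5.21 (adjusted p = 0.00115).

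Cx3cr1 was flagged for the same reason. It was higher than WT by 1.95 on the log2 scale in gp91phox-/- and had a value of -1.79 in p47phox-/-, where 2 libraries (598 and 899 normalized counts) lay below WT and the other (5056) within the WT range. The difference between the knockouts was 3.74 (adjusted p = 0.00183).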

How the results depend on the processing

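Of 302 named genes that were called, 146 kept the call in every alternative that tested them and 167 whichever library was left out; 0 changed direction. For gp91phox-/- against WT, a fit with no mean-variance trend called 742 genes and DESeq2 2416, and limma called 704 to 1191 with 1 library left out. For gp91phox-/- versus p47phox-/- the latter range was 754 to 1692. The causes were not tested. Against WT, the 10 other pseudocounts, filters, scalings and priors gave counts of all called genes within 1.5 times the reported one. They moved 20 of 64 list counts further, each a count of 8 or fewer, as for heat shock genes (7 to 4 with no filter or quantile scaling), ribosomal genes (4 to 2 and 1) and epithelial markers (3 to 5 with log2(value + 5)). Also, recomputed size factors, TMM and quantile scaling moved the count of higher genes to 644, 642 and 662 and of lower genes to 880, 882 and 877. With the replicate number as a block, 1406 and 1209 genes were called. Deviations from the group mean correlated weakly over genes between same-numbered libraries of WT and gp91phox-/- (r = 0.0955, 0.0633 and -0.00132). Differently numbered pairs of these groups had r of -0.0847 to 0.0253. With 3 libraries per group, these values cannot tell whether same-numbered samples were paired. Depth limits genes with few reads, and genes of chromosomes X and Y and of the mitochondrion could not be read.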

Other observations

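Long non-coding RNAs leaned the other way from the genes as a whole: of 820 tested, 45 were higher and 19 lower in gp91phox-/-, against 541 and 815 of 12290 protein-coding genes. Neat1, the scaffold of nuclear paraspeckles, had 22505, 22676 and 25188 normalized counts in WT and 39284, 63994 and 43606 in gp91phox-/- (log2 fold change 1.03, SE 0.18, adjusted p = 0.00807), each gp91phox-/- library above each WT library. Of 70 small nucleolar RNAs 0 were called in limma.

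Genes called lower were most frequent on chromosomes 6 (12.04% of those tested) and 12 (10.6%), which carry the kappa light chain and heavy chain immunoglobulin loci. With immunoglobulin segments left out, the shares were 7.19% and 4.78%, and the highest was 9.43% on chromosome 15. Genes called higher made up 2.97% (chromosome 2) to 6.92% (chromosome 3) of those tested.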
